A study of Mus musculus with 8 samples.

Results

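Triglyceride synthesis was described through the transcripts of 9 enzymes, Gpam, Agpat2, Agpat3, Lpin1, Lpin2, Lpin3, Dgat1, Dgat2 and Mogat1, which were picked by name out of 22180 genes of a liver expression array. Each enzyme was read from a probe set annotated with its symbol alone; where there were several, the brightest on average was taken. All 9 had such a probe set. All 9 also lay above the filter on low values, a mean of 2.72 log2, although Mogat1 did so only narrowly, at a mean of 2.76 log2.

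Most triglyceride of the liver is made in a chain of acylations on glycerol-3-phosphate: Gpam adds the first acyl chain, the Agpat enzymes add the next to give phosphatidate, the lipins remove its phosphate to give diacylglycerol, and Dgat1 and Dgat2 add the last acyl chain. Mogat1 reaches diacylglycerol by a side route, by acylating monoacylglycerol. In fatty liver these steps feed the lipid droplets and the lipoproteins that carry triglyceride out of hepatocytes, and phosphatidate and diacylglycerol are also drawn off for phospholipids.

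The 8 samples were livers of wild-type C57BL/6 mice with non-alcoholic fatty liver disease in the labels, 4 given rilpivirine and 4 controls without it, numbered 1 to 4 in each group. Rilpivirine, a non-nucleoside inhibitor of HIV reverse transcriptase, was given daily by mouth at a dose described only as equivalent to human use. A normal diet and a diet with 60% fat over 3 months are mentioned, but which sample had which is not given in the sources used here, nor are age, collection time, feeding state or what the controls received. Whether the samples are different animals is not stated in the labels, and the p-values therefore reflect only sample-to-sample spread, part of which may be technical.

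Values are log2 expression, on which a difference of 1 is a doubling of signal. Array medians lay between 3.33 and 3.45 log2, and the correlations between arrays between 0.955 and 0.986. Rilpivirine replicate 2 stood apart, with a mean correlation of 0.964 with the other arrays, against 0.976 to 0.981 for the rest. Over 75 probe sets for small nucleolar RNAs its mean signal, as a deviation from the average array, was 0.49 log2, against -0.60 to 0.27 log2 elsewhere. Hepatocyte markers were high throughout, with 8 of 8 above the filter and a list mean of 11.92 to 12.08 log2 with rilpivirine and 11.97 to 12.13 log2 in controls. Of 5 adipocyte markers 4 were above the filter. Their list mean was 3.38 to 4.45 log2 with rilpivirine and 3.47 to 3.60 log2 in controls. Adipoq, which defines adipocytes, was dim, at 2.34 to 2.85 log2 on the 8 arrays, with its highest value in rilpivirine replicate 4. Plin1 (4.25 log2), Retn (5.38 log2) and Fabp4 (6.78 log2) were also highest there, while Lep was not.

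None of the 9 enzymes passed the test over all genes. In limma, the linear model fitted to 16635 genes, 0 of 9 had a Benjamini-Hochberg adjusted p under 0.05, and 0% of all genes tested did. The smallest adjusted p among the enzymes was 0.890. The means of 5 enzymes were higher with rilpivirine (Gpam, Agpat2, Lpin3, Dgat1 and Mogat1) and those of 4 were lower (Agpat3, Lpin1, Lpin2 and Dgat2). The median difference of the 9 was 0.17 log2, against -0.03 log2 over all genes tested. The 5 higher means and this median include Mogat1, which passed the filter only through the rilpivirine group. They are therefore not read as a shift of the enzymes as a set. At an unadjusted p under 0.05 there was 1 enzyme of 9, Agpat2, where 5.21% of all genes tested reached that level. The groups overlapped in each of the 9 enzymes, so that 0 of 9 were separated, against 3.04% of all genes tested.

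**Figure D1:**
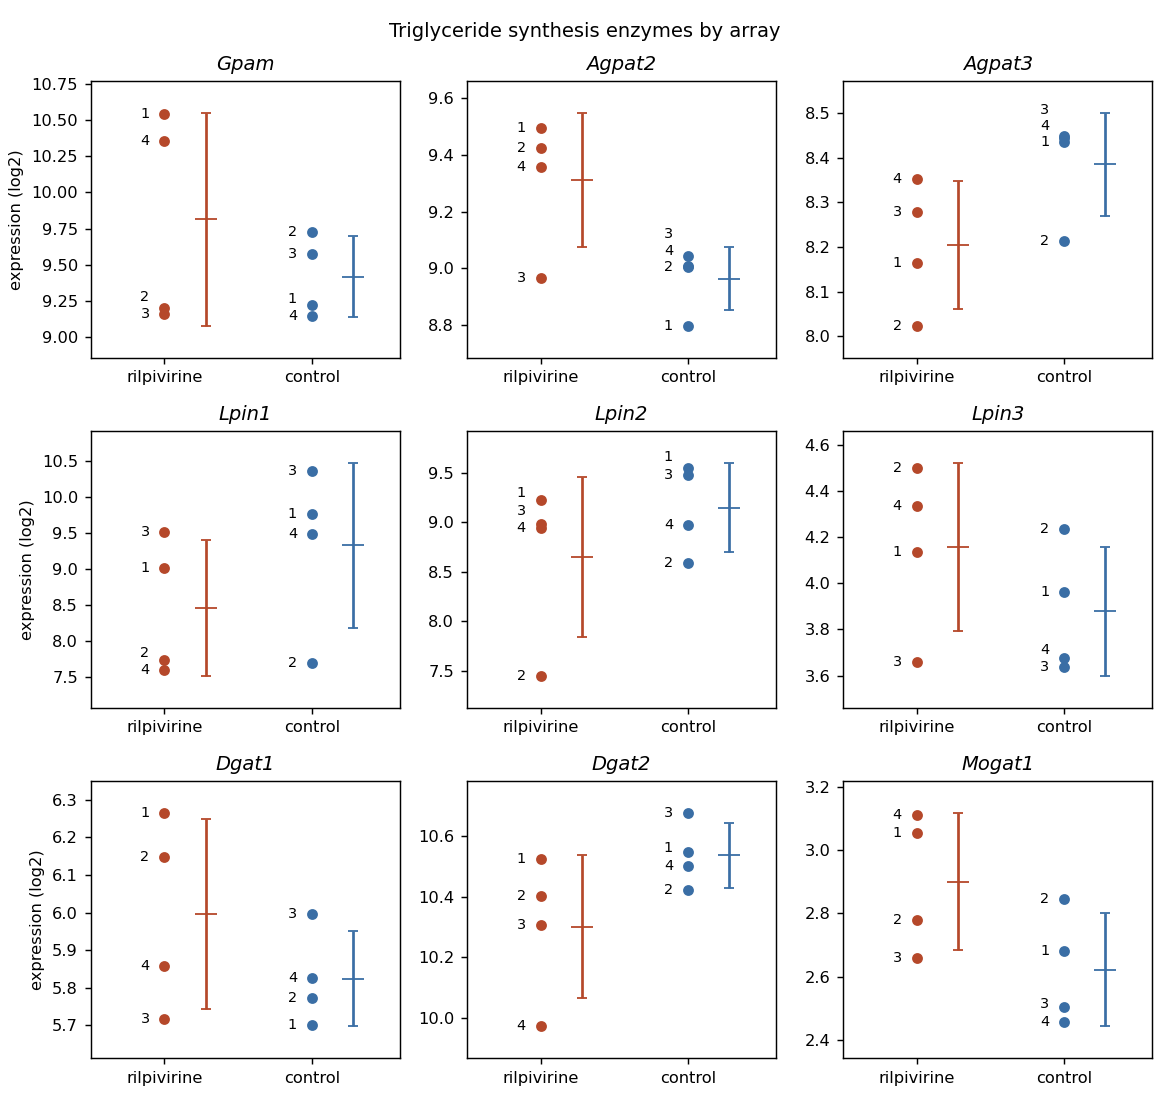
Expression (log2) of the 9 enzymes on each array, rilpivirine left and control right in each panel; the number beside a point is its replicate, and the bars show mean and SD (n = 4 each). The groups overlap in every panel, and the vertical axes differ between panels. Lpin1 spans 7.59 to 10.36 log2 and Agpat3 only 8.02 to 8.45 log2.

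The chain opens with Gpam, the mitochondrial glycerol-3-phosphate acyltransferase. Gpam measured 10.54, 9.20, 9.16 and 10.36 log2 in rilpivirine replicates 1 to 4, against 9.22, 9.73, 9.57 and 9.15 log2 in control replicates 1 to 4. Rilpivirine replicates 1 and 4 were higher than every control, while replicates 2 and 3 lay among the lowest controls. The difference was 0.40 ± 0.31 log2 (SE; 95% confidence interval -0.28 to 1.08; adjusted p = 0.890 in limma). In bulk liver RNA a change in the share of a cell type and a change in RNA per cell cannot be told apart. The Gpam difference was 0.16 log2 without rilpivirine replicate 1, 0.22 log2 without rilpivirine replicate 4 and 0.60 log2 without rilpivirine replicate 2. Rilpivirine replicate 4 also had the highest levels of the adipocyte markers Retn (5.38 log2, against 2.96 to 3.32 on the other arrays), Fabp4 (6.78 log2, against 4.44 to 5.73) and Plin1 (4.25 log2, against 3.24 to 3.81). Its Adipoq was 2.85 log2, against 2.34 to 2.82 log2 on the other arrays, while its Lep, at 3.00 log2, lay within their range. Rilpivirine replicate 1, the highest in Gpam, had Retn at 3.32, Fabp4 at 4.88, Plin1 at 3.38, Adipoq at 2.73 and Lep at 2.60 log2. The part of these markers in the Gpam values was not tested.

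Agpat2 and Agpat3 both add an acyl chain to lysophosphatidate; loss of AGPAT2 causes a congenital lipodystrophy in humans. Agpat2 measured 9.50, 9.43, 8.96 and 9.36 log2 with rilpivirine, against 8.80, 9.0, 9.04 and 9.01 log2 in controls. 3 of 4 rilpivirine samples were above every control, and rilpivirine replicate 3 fell inside the control range. The means were 9.31 ± 0.24 and 8.96 ± 0.11 log2 (SD, n = 4 each), and limma gave a difference of 0.35 ± 0.14 log2 (SE; 95% confidence interval 0.04 to 0.65; unadjusted p = 0.0285, adjusted p = 0.890). The difference was 0.20 log2 when rilpivirine replicates 1 and 2 were both left out, an alternative added once values had been seen. Agpat3 measured 8.16, 8.02, 8.28 and 8.35 log2 with rilpivirine, against 8.43, 8.21, 8.45 and 8.44 log2 in controls. The rilpivirine samples spread below 3 tightly grouped controls, and control replicate 2 lay within the rilpivirine range. The Agpat3 difference was -0.18 ± 0.12 log2 (SE; 95% confidence interval -0.44 to 0.08; adjusted p = 0.890 in limma). Over the 8 arrays Agpat3 had a Pearson r of -0.86 with the small nucleolar RNA level, given as a description, and its difference was -0.09 log2 with that level as a covariate.

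The lipins are magnesium-dependent phosphatidate phosphatases; lipin 1 and lipin 2 are the forms best known in liver, and lipin 1 also acts in the nucleus with the coactivator PGC-1alpha. Lpin1 measured 9.01, 7.73, 9.51 and 7.59 log2 with rilpivirine, against 9.77, 7.69, 10.36 and 9.49 log2 in controls. Low samples occurred in both groups: rilpivirine replicates 2 and 4 and control replicate 2 lay more than 1 log2 below the remaining 5. Means of 8.46 ± 0.95 and 9.33 ± 1.15 log2 (SD, n = 4 each) gave a difference of -0.87 ± 0.56 log2 (SE; 95% confidence interval -2.11 to 0.37; adjusted p = 0.890 in limma). Without control replicate 2 the difference was -1.41 log2 (unadjusted p = 0.0101, adjusted p = 0.630 in limma), and without control replicate 3 it was -0.52 log2. The spread of Lpin1 within groups, a pooled SD of 1.05 log2, was at percentile 99.9 of all genes tested, whose median was 0.21 log2.

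Lpin2 measured 9.23, 7.45, 8.98 and 8.94 log2 with rilpivirine, against 9.55, 8.59, 9.48 and 8.97 log2 in controls. A single array was far below the others, rilpivirine replicate 2, the array that also stood apart over all probe sets. The other probe set of Lpin2 was dimmer and also had its lowest value there, with 5.27, 2.83, 5.43 and 5.07 log2 with rilpivirine and 5.83, 4.64, 4.29 and 5.75 log2 in controls. The difference in the brighter probe set was -0.50 ± 0.36 log2 (SE; 95% confidence interval -1.29 to 0.29; adjusted p = 0.890 in limma), -0.10 log2 without rilpivirine replicate 2 and -0.13 log2 once small nucleolar RNA signal entered the fit as a covariate. Its pooled SD of 0.66 log2 was at percentile 99.0 of all genes tested.

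Lpin3, the least studied lipin, ran the other way and was dim, with a mean of 4.02 log2 over the 8 arrays. Lpin3 measured 4.13, 4.50, 3.66 and 4.34 log2 with rilpivirine, against 3.96, 4.24, 3.64 and 3.68 log2 in controls. The arrays with low Lpin1, namely rilpivirine replicates 2 and 4 and control replicate 2, were the 3 highest in Lpin3. The difference of 0.28 ± 0.20 log2 (SE; 95% confidence interval -0.15 to 0.71; adjusted p = 0.890 in limma) was 0.44 log2 without rilpivirine replicate 3 and 0.12 log2 without rilpivirine replicates 1 and 2 together.

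Since Lpin1 and Lpin3 ran against each other over the arrays, the promoter sequences of the lipins are shown, each the 250 bases before a transcription start in the RefSeq table of build GRCm38.p6. For Lpin2 and Lpin3, which have several entries, the start farthest upstream is given. Capitals mark matches to 5 motifs searched on both strands: CACGTG, the E-box; TGACGTCA and its shorter form TGACG, of cyclic AMP response elements; AGGTCA, the core of nuclear receptor elements; and TGTTCT, a part of glucocorticoid receptor elements. The Lpin1 region is chr12:16610967-16611216 on the minus strand, that of Lpin2 chr17:71183282-71183531 on the plus strand and that of Lpin3 chr2:160880420-160880669 on the plus strand.
Lpin1: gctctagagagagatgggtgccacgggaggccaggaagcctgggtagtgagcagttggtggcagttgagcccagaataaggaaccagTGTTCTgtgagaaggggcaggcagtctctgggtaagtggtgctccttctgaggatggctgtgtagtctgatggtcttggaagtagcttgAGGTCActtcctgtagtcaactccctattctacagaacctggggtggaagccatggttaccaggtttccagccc
Lpin2: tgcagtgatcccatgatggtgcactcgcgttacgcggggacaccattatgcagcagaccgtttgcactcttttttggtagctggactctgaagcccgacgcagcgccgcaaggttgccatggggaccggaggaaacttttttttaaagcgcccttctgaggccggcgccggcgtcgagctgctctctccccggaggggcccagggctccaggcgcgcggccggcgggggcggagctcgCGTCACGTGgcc
Lpin3: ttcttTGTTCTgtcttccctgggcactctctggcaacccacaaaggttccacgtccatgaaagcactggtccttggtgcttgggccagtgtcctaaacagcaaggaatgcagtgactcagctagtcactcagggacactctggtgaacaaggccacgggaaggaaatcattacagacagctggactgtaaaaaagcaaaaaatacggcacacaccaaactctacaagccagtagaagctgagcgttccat
The Lpin1 window held 1 AGGTCA and 1 TGTTCT, that of Lpin2 held 1 CACGTG that overlaps 1 TGACG on the opposite strand, and that of Lpin3 held 1 TGTTCT. Of 32851 promoter windows of the same length, 14.0% held AGGTCA, 16.1% TGTTCT, 6.02% CACGTG, 17.8% TGACG and 1.55% TGACGTCA, so these matches are common and are given as a description. Entries were found for 7 of the 9 enzymes, 11 in all.

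The last acylation is shared by Dgat1 and Dgat2, unrelated proteins that both make triglyceride from diacylglycerol; in mouse liver Dgat2 is tied mainly to newly made fatty acids. Dgat1 measured 6.26, 6.15, 5.72 and 5.86 log2 with rilpivirine, against 5.70, 5.77, 6.00 and 5.83 log2 in controls. Rilpivirine replicates 1 and 2 were the highest, and the other 2 lay within the control range. The difference was 0.17 ± 0.14 log2 (SE; 95% confidence interval -0.14 to 0.49; adjusted p = 0.898 in limma), and -0.04 log2 without rilpivirine replicates 1 and 2 together. Dgat2 measured 10.52, 10.40, 10.31 and 9.97 log2 with rilpivirine, against 10.55, 10.42, 10.68 and 10.50 log2 in controls. 3 of 4 rilpivirine samples were below every control, and rilpivirine replicate 1 was above 2 of them. The Dgat2 difference was -0.24 ± 0.14 log2 (SE; 95% confidence interval -0.54 to 0.07; adjusted p = 0.890 in limma), and -0.13 log2 without rilpivirine replicate 4. Without rilpivirine replicates 1 and 2 together it was -0.40 log2 (unadjusted p = 0.0213, adjusted p = 0.795 in limma).

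Mogat1, the monoacylglycerol acyltransferase that fatty liver is known to induce in mice, was dim here. Mogat1 measured 3.05, 2.78, 2.66 and 3.11 log2 with rilpivirine, against 2.68, 2.85, 2.50 and 2.46 log2 in controls. Rilpivirine replicates 1 and 4, which were also the highest in Gpam, exceeded all controls, and the other 2 did not. The difference was 0.28 ± 0.14 log2 (SE; 95% confidence interval -0.04 to 0.59; adjusted p = 0.890 in limma). The mean was 2.90 log2 with rilpivirine and 2.62 log2 in controls, so that Mogat1 passed the filter of 2.72 log2 only through the rilpivirine group, and its difference and p-value carry no weight as support.

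**Figure D2:**
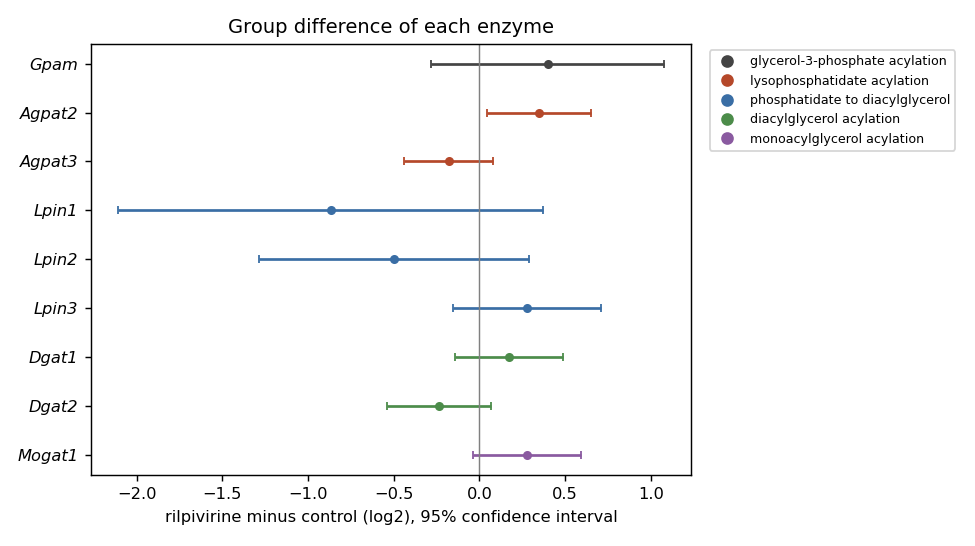
Rilpivirine minus control (log2) for each enzyme, in the order of the pathway and coloured by step; points are the estimates of limma and bars their 95% confidence intervals (n = 4 each). The interval of Agpat2, 0.04 to 0.65, is the 1 that leaves out 0 before adjustment, and that of Lpin1, -2.11 to 0.37, is the widest.

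Enzymes of the same step, and the 2 entry routes, were then set against each other within each array, which removes any scaling between arrays; 6 pairs were tested with exact two-sided permutation tests over samples, whose smallest possible p with 4 against 4 is 0.0286. The pair Dgat1 minus Dgat2 was the 1 of the 6 whose groups did not overlap, and full separation always gives that smallest p. The share of other gene pairs that separate was not computed, and the 6 pairs were chosen with earlier results of these data known. The count is therefore not read as a result about the enzymes. Dgat1 minus Dgat2 was -4.26, -4.26, -4.59 and -4.11 log2 with rilpivirine, against -4.85, -4.65, -4.68 and -4.67 log2 in controls. Every rilpivirine sample thus had more Dgat1 signal relative to its Dgat2 signal than any control, by 0.41 ± 0.11 log2 on average (SE; exact p = 0.0286, adjusted over the 6 pairs p = 0.171). Leaving out any 1 sample gave 0.34 to 0.50 log2, and leaving out rilpivirine replicates 1 and 2 together gave 0.36 log2.

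Agpat2 minus Agpat3 was 1.33, 1.40, 0.69 and 1.01 log2 with rilpivirine, against 0.36, 0.79, 0.60 and 0.56 log2 in controls. 3 of 4 rilpivirine samples exceeded all controls, and rilpivirine replicate 3 was below control replicate 2. The difference was 0.53 ± 0.19 log2 (SE; exact permutation p = 0.0571, adjusted p = 0.171), and 0.27 log2 without rilpivirine replicates 1 and 2 together. The lipin pairs had wider spreads. Lpin1 minus Lpin3 differed by -1.15 ± 0.95 log2 (SE; exact permutation p = 0.229), Lpin2 minus Lpin3 by -0.78 ± 0.63 log2 (exact permutation p = 0.286) and Lpin1 minus Lpin2 by -0.37 ± 0.57 log2 (exact permutation p = 0.571), with adjusted p from 0.429 to 0.686. With 1 sample left out at a time, Lpin1 minus Lpin2 ranged from -0.73 log2 without control replicate 2 to 0.02 log2 without rilpivirine replicate 4, so its sign was not fixed. Lpin1 minus Lpin3 ranged from -1.81 log2 without control replicate 2 to -0.72 log2 without control replicate 3, and Lpin2 minus Lpin3 from -1.08 log2 without control replicate 2 to -0.26 log2 without rilpivirine replicate 2. The entry routes, as Mogat1 minus Gpam, differed by -0.12 ± 0.29 log2 (SE; exact permutation p = 0.714, adjusted p = 0.714), with -0.28 log2 without rilpivirine replicate 2 and 0.07 log2 without rilpivirine replicate 1 as the ends of the range when 1 sample was left out. That pair is a description only, as Mogat1 passed the filter only through the rilpivirine group.

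**Figure D3:**
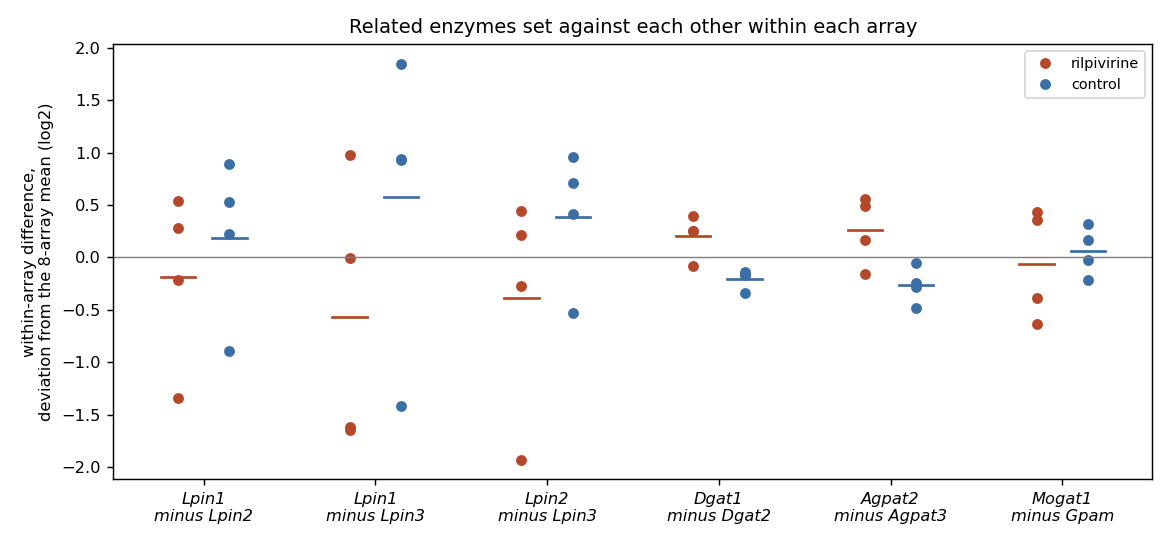
Within-array differences between related enzymes (log2, as deviation from the mean of the 8 arrays), rilpivirine left and control right for each pair; points are arrays and lines group means (n = 4 each). The points of Dgat1 minus Dgat2 do not overlap between groups, and those of the pairs with a lipin spread most.

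Over the 8 arrays 36 pairs of enzymes were compared with each other, with exact permutation p-values. After adjustment over the 36, 0 pairs passed 0.05 by Pearson's r and 1 pair by Spearman's rho. That pair was Agpat2 and Dgat1, with r = 0.85 (permutation p = 0.0202, adjusted p = 0.214) and rho = 0.98 (permutation p = 0.000397, adjusted p = 0.0143). Without rilpivirine replicates 1 and 2, the arrays farthest from the median of Agpat2, its r was 0.51. It was 0.87 within the rilpivirine group and 0.77 within controls, with 4 arrays in each. Lpin1 and Lpin3 ran against each other, with r = -0.89 (permutation p = 0.00481, adjusted p = 0.173) and rho = -0.86 (permutation p = 0.0107, adjusted p = 0.193). Their r was -0.88 without rilpivirine replicate 4 and control replicate 2, -0.91 within the rilpivirine group and -0.86 within controls. Lpin1 and Lpin2 had r = 0.71 (permutation p = 0.0258, adjusted p = 0.214) and rho = 0.81 (permutation p = 0.0218, adjusted p = 0.196), and r was 0.91 without the same 2 arrays. Gpam and Mogat1 had r = 0.83 (permutation p = 0.0228, adjusted p = 0.214) and rho = 0.81 (permutation p = 0.0218, adjusted p = 0.196), with r = 0.30 without rilpivirine replicates 1 and 4, 0.96 within the rilpivirine group and 0.57 within controls. Mogat1 passed the filter only through the rilpivirine group, so relations with it carry no weight as support.

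Lpin1 and Lpin3 moved in opposite directions along Ppargc1a, which encodes PGC-1alpha, the coactivator of the fasting response of liver and a known inducer of Lpin1. Ppargc1a measured 5.75, 4.73, 6.40 and 5.28 log2 with rilpivirine, against 6.18, 5.64, 7.02 and 6.39 log2 in controls. Rilpivirine replicates 2 and 4 were the lowest and control replicate 3 the highest, with overlap between the groups and a difference of -0.77 ± 0.35 log2 (SE; adjusted p = 0.890 in limma). Ppargc1a and 5 transcription factors of lipid metabolism were compared with the 9 enzymes, 54 relations in all, a set chosen after values had been seen; 2 relations passed an adjusted p of 0.05 by Pearson's r and 1 by Spearman's rho. Lpin3 fell in rank at every step of rising Ppargc1a, with rho = -1 and r = -0.96 (permutation p = 5.0e-05 for each, the smallest that 8 arrays can give, adjusted p = 0.00268). That relation rests on a dim probe set, at percentile 35.9 of mean level among genes tested, against 96.3 for Lpin1. Lpin1 rose with Ppargc1a, with r = 0.91 (permutation p = 0.00154, adjusted p = 0.0415) and rho = 0.86 (permutation p = 0.0107, adjusted p = 0.193). The adjustment covers the 54 relations and not all genes tested. Over all genes tested Ppargc1a was not the extreme for either lipin. Map2k6 and Lgr4 had r = -0.97 each with Lpin3, and 4930581F22Rik and Uqcc3 had r = 0.96 each with Lpin1.

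Without rilpivirine replicate 2 and control replicate 3, the arrays farthest from the median of Ppargc1a, r was -0.97 for Lpin3 and 0.90 for Lpin1. Within the rilpivirine group r was -0.98 for Lpin3 and 0.91 for Lpin1, and within controls -0.92 and 0.91, with 4 arrays in each. Lpin2 and Ppargc1a had r = 0.78 (permutation p = 0.0251, adjusted p = 0.259) and rho = 0.71 (permutation p = 0.0576, adjusted p = 0.311), and r = 0.32 without those 2 arrays; r was 0.75 within the rilpivirine group and 0.70 within controls. Srebf1, which encodes the lipogenic factor SREBP-1, had r = 0.81 with Gpam (permutation p = 0.0312, adjusted p = 0.259) and rho = 0.81 (permutation p = 0.0218, adjusted p = 0.294). Their r was 0.76 without the 2 arrays farthest from the median of Srebf1. Srebf1 measured 9.03, 8.28, 7.70 and 8.49 log2 with rilpivirine, against 7.78, 8.86, 8.01 and 7.84 log2 in controls. A relation larger in size was that of Mlxipl, another of the transcription factors, with Agpat3. They had r = -0.88 (permutation p = 0.0069, adjusted p = 0.124) and rho = -0.90 (permutation p = 0.00456, adjusted p = 0.123). Without the 2 arrays farthest from the median of Mlxipl r was -0.98. It was -0.81 within the rilpivirine group and -0.997 within controls.

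**Figure D4:**
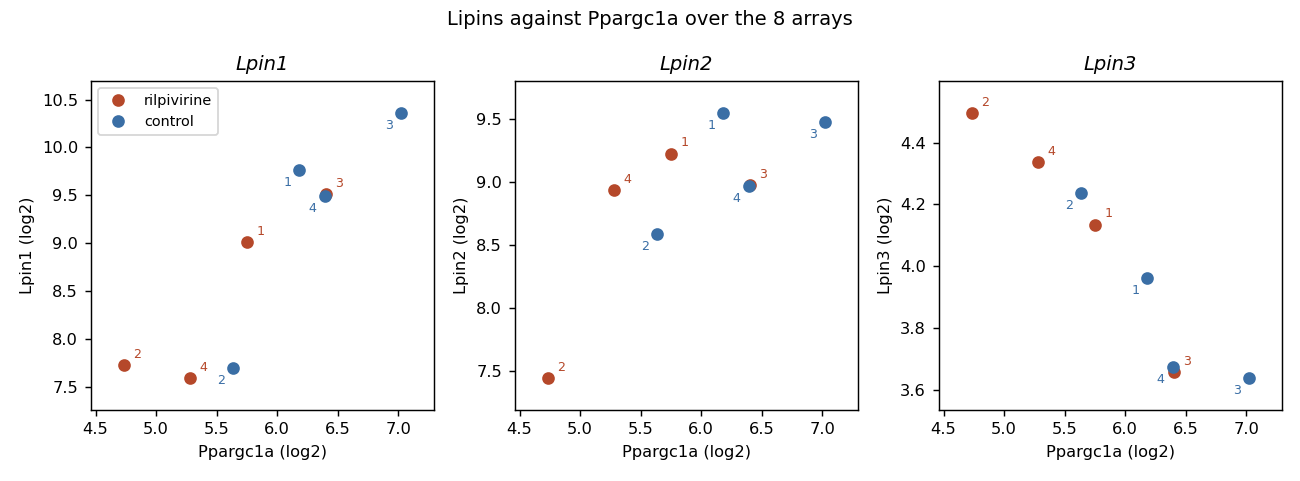
Lpin1, Lpin2 and Lpin3 (log2, vertical) against Ppargc1a (log2, horizontal); each point is an array, coloured by group and numbered by replicate (n = 8). Lpin1 rises and Lpin3 falls along Ppargc1a in both groups, while the low Lpin2 point at 7.45 log2 is rilpivirine replicate 2.

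Of 45 other genes around the pathway, 40 were measured by a probe set named for them alone and all 40 passed the filter. In limma 0 of the 40 passed an adjusted p of 0.05 in either direction, 19 were higher and 21 lower with rilpivirine, and the median difference was -0.002 log2, against -0.03 log2 over all genes tested. At an unadjusted p under 0.05 there were 4, with Gpd1 and Chka higher and Gpat4 and Ppara lower, where 5.21% of all genes tested reached that level.

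Among 8 other acyltransferases 1 was higher and 7 lower. Gpat4, the glycerol-3-phosphate acyltransferase of the endoplasmic reticulum, measured 8.39, 7.56, 7.81 and 8.0 log2 with rilpivirine, against 8.60, 8.35, 8.57 and 8.41 log2 in controls. Only rilpivirine replicate 1 reached the control range, and the difference was -0.54 ± 0.17 log2 (SE; unadjusted p = 0.00806, adjusted p = 0.813 in limma). Agpat1, which acts at the same step as Agpat2, differed by -0.22 ± 0.11 log2 (SE). Of 8 measured genes of substrate supply 3 were higher and 5 lower. Gpd1, which makes glycerol-3-phosphate in the cytosol, measured 9.56, 9.68, 9.50 and 9.65 log2 with rilpivirine, against 8.83, 9.47, 9.18 and 9.38 log2 in controls. It was the 1 gene of the 40 whose groups did not overlap, against 3.04% of all genes tested, and its difference was 0.38 ± 0.15 log2 (SE; adjusted p = 0.890 in limma). Its relative Gpd1l differed by -0.24 ± 0.14 log2 (SE).

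In the list of lipin control and other phosphatidate phosphatases, 3 genes of 6 were higher and 3 lower. Besides Ppargc1a, Plpp2, a phosphatidate phosphatase of membranes, differed by -0.21 ± 0.14 log2 (SE). Of 8 measured genes that use phosphatidate or diacylglycerol for phospholipids, 5 were higher and 3 lower. Chka, a choline kinase, measured 5.38, 5.76, 5.39 and 6.47 log2 with rilpivirine, against 5.26, 5.47, 4.85 and 4.95 log2 in controls. Rilpivirine replicate 4 stood highest, replicates 1 and 3 lay inside the control range, and the difference was 0.62 ± 0.24 log2 (SE; adjusted p = 0.890 in limma). Selenoi, an ethanolaminephosphotransferase that uses diacylglycerol, differed by 0.34 ± 0.16 log2 (SE).

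Of 5 transcription factors 4 were higher and 1 lower. Ppara, the nuclear receptor of fatty acid oxidation, measured 8.24, 7.61, 7.84 and 7.98 log2 with rilpivirine, against 8.14, 8.56, 8.34 and 8.26 log2 in controls. Rilpivirine replicate 1 was above control replicate 1, the other 3 were below all controls, and the difference was -0.41 ± 0.15 log2 (SE; adjusted p = 0.890 in limma). Mlxipl, which encodes the carbohydrate response factor ChREBP, differed by 0.19 ± 0.16 log2 (SE). Of 5 genes of droplet formation and lipoprotein loading 3 were higher and 2 lower. Fitm2 and Fitm1, which help droplets to form, differed by -0.36 ± 0.17 and -0.36 ± 0.31 log2 (SE), and Mttp, which loads triglyceride onto apolipoprotein B, by 0.02 ± 0.11 log2 (SE; 95% confidence interval -0.23 to 0.26).

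**Figure D5:**
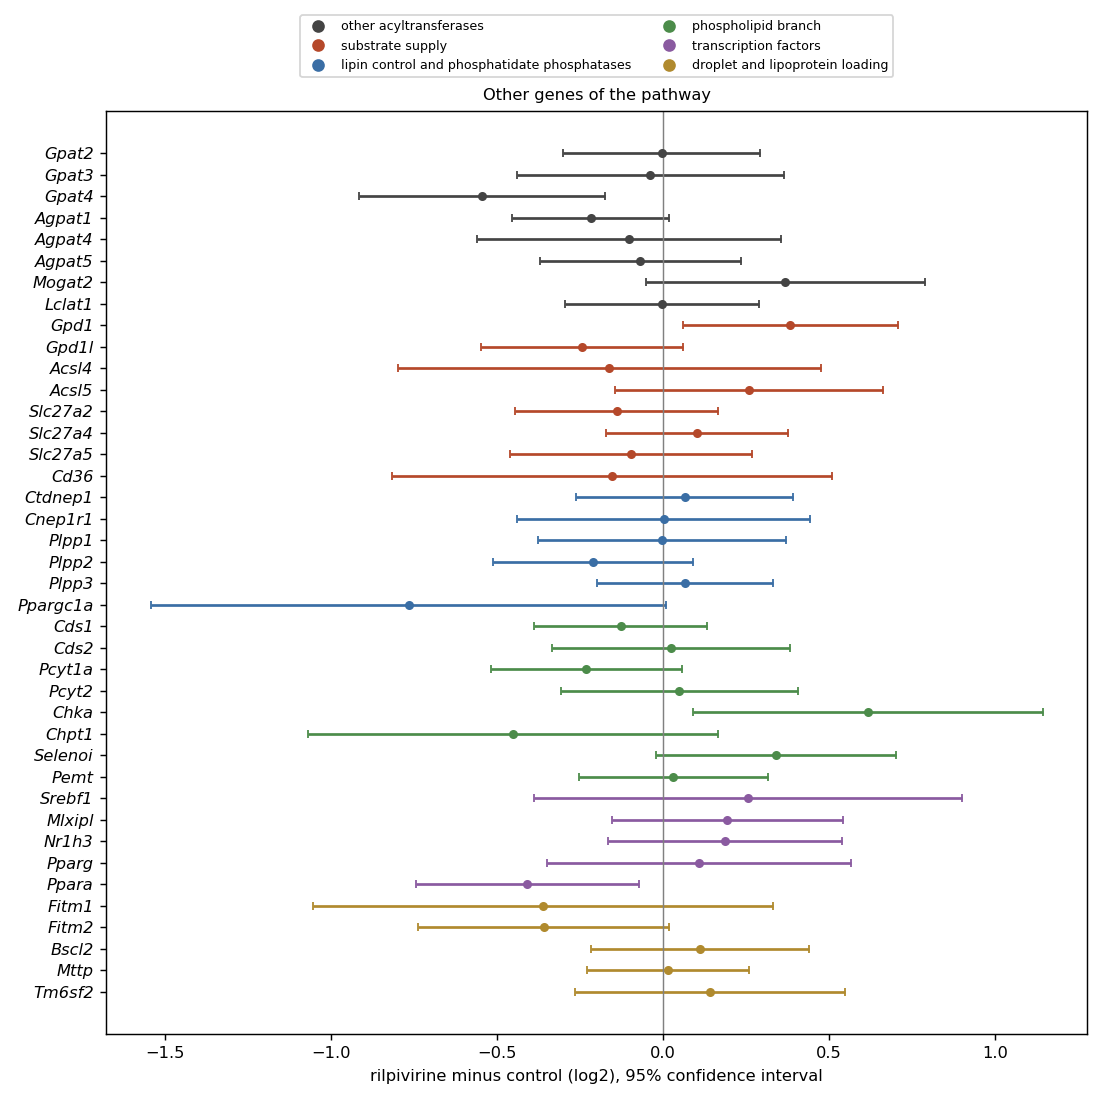
Rilpivirine minus control (log2) with 95% confidence intervals for the 40 other measured genes of the pathway, coloured by list (n = 4 each). Gpat4 and Ppara lie below 0 and Gpd1 and Chka above 0 before adjustment, and none passed the threshold over all genes.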

How the data were processed

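Total RNA of snap-frozen liver was isolated with Trizol, and 300 ng of it were amplified and labelled by a whole-transcript method for 1-colour Affymetrix arrays, per the labels' protocols. The authors deposited log2 expression values of 41345 probe sets, made with RMA (background correction, quantile normalization and summary of probes), and used limma, per the submitters' processing notes, which give no versions. RMA removes differences in total signal, so a change in total mRNA could not be seen. For arrays there are no counts, and the number of arrays limits the precision.

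Of the probe sets, 23521 had 1 gene symbol in the platform annotation, 1814 several and 16010 none listed; 1 probe set per symbol gave 22180 genes. The dimmest genes, those below the 25th percentile of mean level, were left out. The other 16635 were fitted in limma 3.58.1 (R 4.3.3; lmFit, then eBayes) with no covariates and two-sided tests, with Benjamini-Hochberg adjustment at 0.05. Permutation tests were run with scipy 1.17.1. No pair of arrays was identical. The fit was tested on simulated data.

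The 9 members, the 6 pathway lists and the pairs were chosen with earlier results of these data known. From each list the counts and the 2 genes with the smallest unadjusted p were named; Ppargc1a, Srebf1 and Mttp were also given for their role. For the 2 enzymes with the smallest p the most similar genes were named. Alternatives were moderation with trend and robust, array weights, 2 scalings, 2 filters, the mean of probe sets, the replicate block, each sample left out, Welch statistics and a threshold of 0.10; leaving out rilpivirine replicates 1 and 2 together and the small nucleolar RNA covariate were added after values had been seen. Promoters are from the RefSeq table of GRCm38.p6.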

Additional observations from a re-analysis of the deposited data

Results flagged for a closer look

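In 56 groups of 4 samples, 6 held a sample whose gap to its nearest neighbour was a larger share of the group's range than Dixon's 95% critical value for 4 samples; chance flags about 1 in 20 groups. In Lpin2, rilpivirine replicate 2 was lowest, with a gap of 0.838 of the range, and in the dimmer probe set of Lpin2 the same array was lowest, with 0.861. In Agpat3, control replicate 2 was lowest, with 0.943. In Agpat2, control replicate 1 was lowest, with 0.830. In Dgat1 minus Dgat2, control replicate 1 was lowest, with 0.839. In Mlxipl, control replicate 2 was highest, with 0.864.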

How the results depend on the processing

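Under each of the alternatives, limma or Welch statistics called 0 genes and 0 of the 9 enzymes after adjustment; the smallest adjusted p of an enzyme ranged from 0.555 without rilpivirine replicate 4 to 0.999 without rilpivirine replicate 2. The 1 enzyme at an unadjusted p under 0.05 became 0 with Welch statistics, 3 with the replicate block, 2 with array weights and 0 after adding the small nucleolar RNA covariate, and 0 to 3 with each sample left out in turn. Of the 16635 genes tested, the 867 at that level became 653 with Welch statistics, 1071 with the replicate block, 943 with array weights and 746 with the covariate. With each sample left out they became 578 to 1524, the highest without rilpivirine replicate 4. Enzymes whose groups did not overlap numbered 0 to 1 with each sample left out, and 1, Dgat2, without rilpivirine replicates 1 and 2 together. Groups separate more easily with fewer samples, and the share of all genes was not computed for these reduced sets. These counts are therefore not read as a result about the enzymes. Without rilpivirine replicates 1 and 2 together Dgat1 differed by -0.04 log2, and the cause was not tested. Whether replicate numbers pair the samples could not be decided from these values. The deviations of same-numbered samples from their group means had correlations of -0.25, 0.46, -0.09 and 0.07. In limma the replicate block gave Lpin1 an unadjusted p of 0.00852, Lpin2 0.0219 and Agpat2 0.0465, with 0.609 as the smallest adjusted p of an enzyme. With the block the SE was 0.26 log2 for Lpin1 and 0.18 log2 for Lpin2, against 0.56 and 0.36 log2 without it. Signs of the 9 differences held in each alternative except that of Dgat1 above. The median of all genes tested moved by less than 0.1 log2 under each. Mogat1 was left out by the filter at the 50th percentile and has no value there. Array number and, for Mogat1, signal near the filter limit what could be seen.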

Other observations

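The genes whose values over the 8 arrays were most like those of an enzyme are given as a description, with the Pearson r over 8 arrays shared with the enzyme; each was the extreme of 16634 genes, so no p applies. For Agpat2 the most similar were Ifi35, an interferon-induced gene (r = 0.97), Lmf2, a relative of the lipase maturation factor (0.97), and Ncaph2, a condensin II subunit (0.97). The most opposite were Mir1970 (-0.97) and C8a, a chain of complement component 8 (-0.96), which had a difference of -0.83 log2. For Mogat1 the most similar were Mindy1 (0.97), the splicing factor Prpf19 (0.97) and Srrm1 (0.96), and the most opposite were Tox (-0.97) and C8b, another chain of complement component 8 (-0.96), with a difference of -0.62 log2. The remaining enzymes were looked up after values had been seen. For Gpam the most similar were Cyp2c55 (0.98), Acly, which makes cytosolic acetyl-CoA (0.97), and Acaca, the acetyl-CoA carboxylase of fatty acid synthesis (0.96). The most opposite to Gpam were Egfr (-0.95) and E230029C05Rik (-0.93). Values of r were at least as high for Mtrr with Lpin2, Kdm5a with Agpat3 and Sfmbt2 with Dgat1 (0.99 each). Acly and Acaca differed between the groups by 0.31 and 0.21 log2.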
